A study of Mus musculus with 6 samples.

Results

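The 9 genes described here cover the TGF-beta pathway from signal to output: the ligands Tgfb1, Tgfb2 and Tgfb3, the receptors Tgfbr1 and Tgfbr2, the signal transducer Smad3, the feedback genes Smad7 and Skil, and the target Tgfbi. They were taken by symbol from the deposited table of read counts, as 9 of its 23481 genes. The question put to them was whether ligand or receptor transcripts go with the targets and feedback genes.

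TGF-beta ligands are secreted in latent complexes and, once released, bind the type II receptor Tgfbr2, which recruits and phosphorylates the type I receptor Tgfbr1. Tgfbr1 phosphorylates Smad2 and Smad3, which join Smad4, enter the nucleus and switch target genes on or off; the inhibitory Smad7 and the co-repressor Skil are induced by the pathway and restrain it. In mammary carcinoma cells the pathway is known for growth arrest, for the shift from an epithelial to a mesenchymal state and for invasion.

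The cells were 4T1, a mouse mammary carcinoma line, called 4T1_T in the title of the table, grown in DMEM with non-essential amino acids. All cells were infected with a short hairpin RNA: shAsns-1 or shAsns-2 against Asns, which encodes asparagine synthetase, or shRenilla against a luciferase that is absent from mouse cells, as the control. RNA of each hairpin was sequenced as a library A and a library B, but the shAsns-1 B column held 0 reads at every gene, which left 1 library for shAsns-1 and 2 each for shAsns-2 and shRenilla, whose values are given as A, then B. Whether A and B came from separate cultures or infections is not stated in the labels, so the p-values measure only the spread between these libraries, which may be technical. In such bulk RNA, fewer cells that express a gene and less RNA per cell cannot be told apart.

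Levels are given as CPM, reads scaled to 1000000 reads assigned to genes, which numbered 10244753 in the shAsns-1 library and 10472179 to 15955168 in the other 4. Asns, the targeted gene, stood at 110.4 CPM in the shAsns-1 library, at 45.7 and 44.2 CPM in the shAsns-2 libraries, and at 58.7 and 56.9 CPM in the shRenilla libraries. The level under shAsns-1 was thus 1.89-fold that of shRenilla, against the label, and the sample is therefore referred to as the library labelled shAsns-1. It stood apart in other ways: 17672 genes had a read in it, against 15052 to 15392 in each of the others, and its log2 fold changes against shRenilla ran with the GC content of the transcript across 8897 genes, which are not independent replicates (Spearman rho -0.322, against 0.0783 for shAsns-2). Fold changes and p-values come from edgeR's quasi-likelihood test over 12457 genes with enough reads, in 1 fit of all 5 libraries in which the library labelled shAsns-1 is assumed to vary like the other groups. A gene is called when its p, adjusted over all genes tested by the Benjamini-Hochberg method, is under 0.05. All 9 genes were among those tested, on 17 to 4016 reads per library. Asns itself was 0.792-fold in shAsns-2 relative to shRenilla (95% interval 0.696 to 0.902, adjusted p = 0.216, edgeR) and was not called.

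None of the 9 genes was called in any comparison by edgeR. In the library labelled shAsns-1 against shRenilla 0 of 9 were called, where 4.37% of all genes tested were, and 3 of 9 (Tgfb1, Smad3 and Tgfbi, each higher in that library) had an unadjusted p under 0.05, where 19.6% of all genes did. In shAsns-2 against shRenilla 0 of 9 were called, where 0.0642% of all genes were, and 1 of 9 (Tgfb1) had an unadjusted p under 0.05, where 9.63% did. In the direct comparison of shAsns-2 with that library the count was again 0 of 9, against 2.14% of all genes. There 2 of 9 (Tgfb2 and Smad3) had an unadjusted p under 0.05, where 16.8% of all genes did. DESeq2 and limma-voom also called 0 of 9 in all 3 comparisons. A gene given no adjusted p counts as not called. By DESeq2 this was so for Tgfb2 in both comparisons with shRenilla and for Tgfbi in that of shAsns-2. The medians of the 9 log2 fold changes were 0.09 for the library labelled shAsns-1 and 0.11 for shAsns-2, each against shRenilla, beside -0.0090 and -0.0014 over all genes. Both of these comparisons use the same 2 shRenilla libraries, so their values are not independent.

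**Figure D1:**
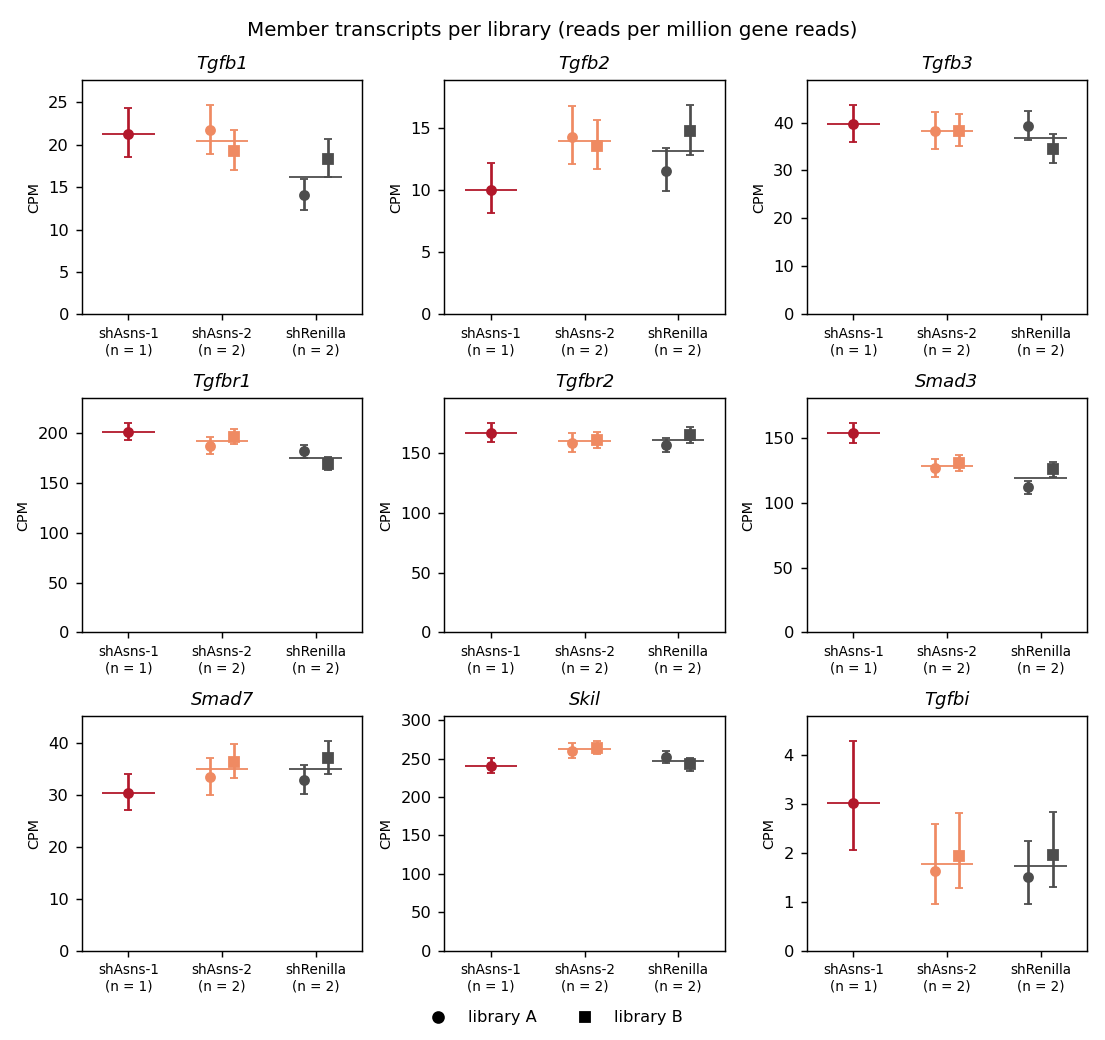
CPM of the 9 genes in each library, on axes that start at 0: the library labelled shAsns-1 (1 library), shAsns-2 (2) and shRenilla (2). Bars are exact 95% Poisson intervals of each library's own reads, which cover counting error only, and horizontal lines are group means. Smad3 at 154 CPM in the library labelled shAsns-1 lies above the other 4 libraries, Tgfb2 at 10.1 CPM below them.

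Per length of transcript the genes differ widely, and the order was read in RPKM, CPM per 1000 bases of annotated exon. Tgfbr1 had the highest level, 28.6 RPKM as the mean of 5 libraries (25.8 to 30.7), followed by Skil at 25.99 (24.8 to 27.3), Smad3 at 23.4 (20.2 to 27.8) and Tgfbr2 at 19.8 (19.1 to 20.4). Each of these 4 overlapped its neighbour in the order over the libraries. Below them the ranges of neighbours were separate: Tgfb3 at 11.2 RPKM (10.2 to 11.7), Smad7 at 7.53 (6.74 to 8.21), Tgfb1 at 3.75 (2.78 to 4.30), Tgfb2 at 2.22 (1.74 to 2.55) and Tgfbi at 0.533 (0.399 to 0.802). By this scale the receptors, Smad3 and Skil lay above the ligands and Smad7, and Tgfbi lay below all of them.

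**Figure D2:**
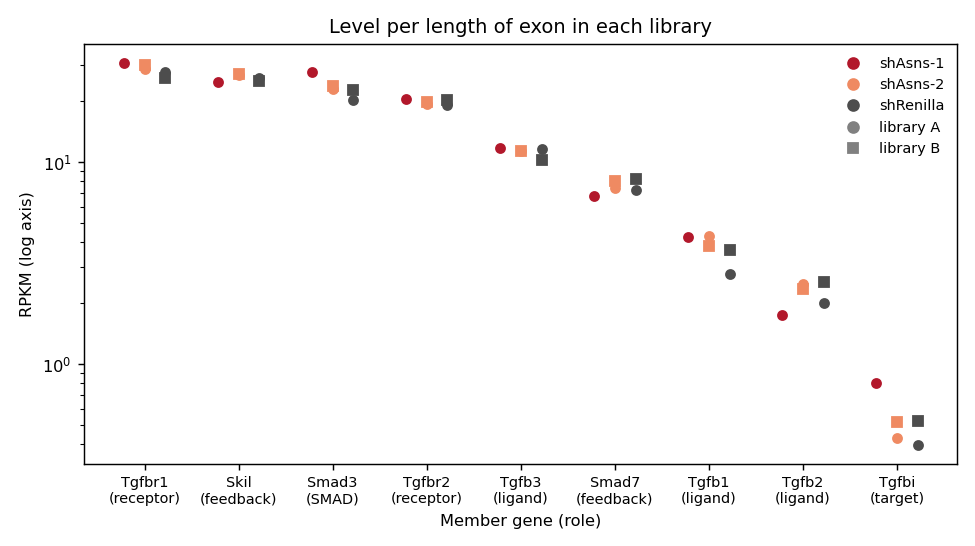
Level per length of exon (RPKM, log axis) of each gene in each of the 5 libraries, ordered by the mean. The first 4 genes lie between 19.1 and 30.7 RPKM and overlap, and the other 5 step down to Tgfbi at 0.399 to 0.802 RPKM.

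Among the ligands Tgfb3 was the most abundant in every library, with 66.3% of the summed RPKM of the 3 in the library labelled shAsns-1, 62.5 and 64.8% of the sum in the shAsns-2 libraries, and 70.8 and 62.2% in the shRenilla libraries. Tgfb1 made up 23.9% in the library labelled shAsns-1, 23.8 and 21.8% under shAsns-2, and 17.0 and 22.2% in shRenilla. Tgfb2 made up 9.82% in the library labelled shAsns-1, 13.7 and 13.4% under shAsns-2, and 12.2 and 15.6% in shRenilla. The smallest Tgfb2 share and the smallest Tgfb1 share thus lay in different libraries, that labelled shAsns-1 and shRenilla A.

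Tgfb1, the ligand best known from tumours and immune cells (chr7:25687002-25705077, + strand, GRCm38), had 21.3 CPM in the library labelled shAsns-1, 21.7 and 19.2 CPM in the shAsns-2 libraries, and 14.0 and 18.3 CPM in the shRenilla libraries. Both shAsns-2 libraries, and also the library labelled shAsns-1, lay above both shRenilla libraries, and the gap to shRenilla B was smaller than the gap between the shRenilla libraries. Relative to shRenilla the log2 fold change stood at 0.39 (SE 0.169, adjusted p = 0.211, edgeR) for the library labelled shAsns-1 and 0.36 (SE 0.135, adjusted p = 0.412) for shAsns-2. The shAsns-2 libraries averaged 20.5 ± 1.73 CPM and the shRenilla libraries 16.2 ± 3.04 CPM (SD, n = 2 each). The 95% intervals of the log2 fold changes ran from 0.03 to 0.74 and from 0.08 to 0.65. Without shRenilla A the values were 0.21 and 0.19, and without shRenilla B they were 0.58 and 0.55.

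Tgfb2, a ligand that needs betaglycan for strong binding to its receptors (chr1:186622792-186705989, - strand), had 10.1 CPM in the library labelled shAsns-1, 14.3 and 13.6 CPM in shAsns-2, and 11.6 and 14.8 CPM in shRenilla. That library was the lowest of the 5, and shAsns-2 lay between the shRenilla libraries. Its log2 fold change was -0.40 (SE 0.193, 95% interval -0.81 to 0.01, adjusted p = 0.269) for the library labelled shAsns-1 and 0.11 (SE 0.142, -0.19 to 0.41, adjusted p = 0.836) for shAsns-2. Set directly against each other, shAsns-2 was 0.51 higher (SE 0.195, unadjusted p = 0.0183, adjusted p = 0.196), the smallest unadjusted p of the 9 genes in that comparison. Without shRenilla B the value for the library labelled shAsns-1 was -0.23, without shRenilla A -0.56.

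Tgfb3, the most abundant ligand here (chr12:86056745-86079041, - strand), had 39.6 CPM in the library labelled shAsns-1, 38.2 and 38.3 CPM in shAsns-2, and 39.3 and 34.4 CPM in shRenilla. The library labelled shAsns-1 lay just above shRenilla A, and shAsns-2 lay within the shRenilla range. The log2 fold changes were 0.09 (95% interval -0.18 to 0.36) and 0.08 (-0.13 to 0.29). Exons of Tgfb2 share 124 bases with the antisense transcript Gm29491, and those of Tgfb3 share 163 and 257 bases with Gm37804 and Gm48008 on the other strand. The strand setting of the counting is not given in the sources used here, so reads of these partners cannot be told apart from those of the ligands.

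Neither receptor was called. Tgfbr1, the type I receptor kinase (chr4:47353222-47414931, + strand), had 201 CPM in the library labelled shAsns-1, 187 and 196 CPM in shAsns-2, and 181 and 169 CPM in shRenilla. Both shAsns-2 libraries and the library labelled shAsns-1 lay above both shRenilla libraries, at log2 fold changes of 0.19 in the library labelled shAsns-1 (SE 0.0988, adjusted p = 0.316) and 0.16 in shAsns-2 (SE 0.0807, adjusted p = 0.557). Tgfbr2, the type II receptor that binds the ligand first (chr9:116084293-116175360, - strand), had 167 CPM in the library labelled shAsns-1, 159 and 161 CPM in shAsns-2, and 157 and 165 CPM in shRenilla. The library labelled shAsns-1 lay just above shRenilla B, and shAsns-2 lay within the shRenilla range. The log2 fold changes were 0.04 and 0.02, with 95% intervals of -0.16 to 0.25 and -0.15 to 0.18. The ratio of Tgfbr1 to Tgfbr2 in RPKM was 1.51 in the library labelled shAsns-1, 1.48 and 1.53 under shAsns-2, and 1.45 and 1.28 in shRenilla.

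Smad3, the transcription factor that carries the receptor signal to target genes (chr9:63646767-63757994, - strand), came nearest to a call. It had 154 CPM in the library labelled shAsns-1, 127 and 131 CPM in shAsns-2, and 112 and 126 CPM in shRenilla. The library labelled shAsns-1 was the highest of the 5, and shAsns-2 lay just above shRenilla B. The log2 fold change was 0.36 in the library labelled shAsns-1 (SE 0.102, 95% interval 0.15 to 0.58, unadjusted p = 0.00249, adjusted p = 0.0533, edgeR), a 1.29-fold difference on 1 library, and 0.14 in shAsns-2 (SE 0.0838, -0.03 to 0.32, adjusted p = 0.603). Over 11 other ways of processing, the value for the library labelled shAsns-1 ranged between 0.29 and 0.44 and its adjusted p between 0.00817 and 0.143. It passed the threshold under 4 of them: when no low counts were filtered out (adjusted p = 0.0388), without shRenilla B (0.0154), with the GC trend removed (0.0286) and with the letters A and B as a replicate block (0.00817). In the direct comparison shAsns-2 was at -0.22 relative to that library (SE 0.103, adjusted p = 0.296).

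**Figure D3:**
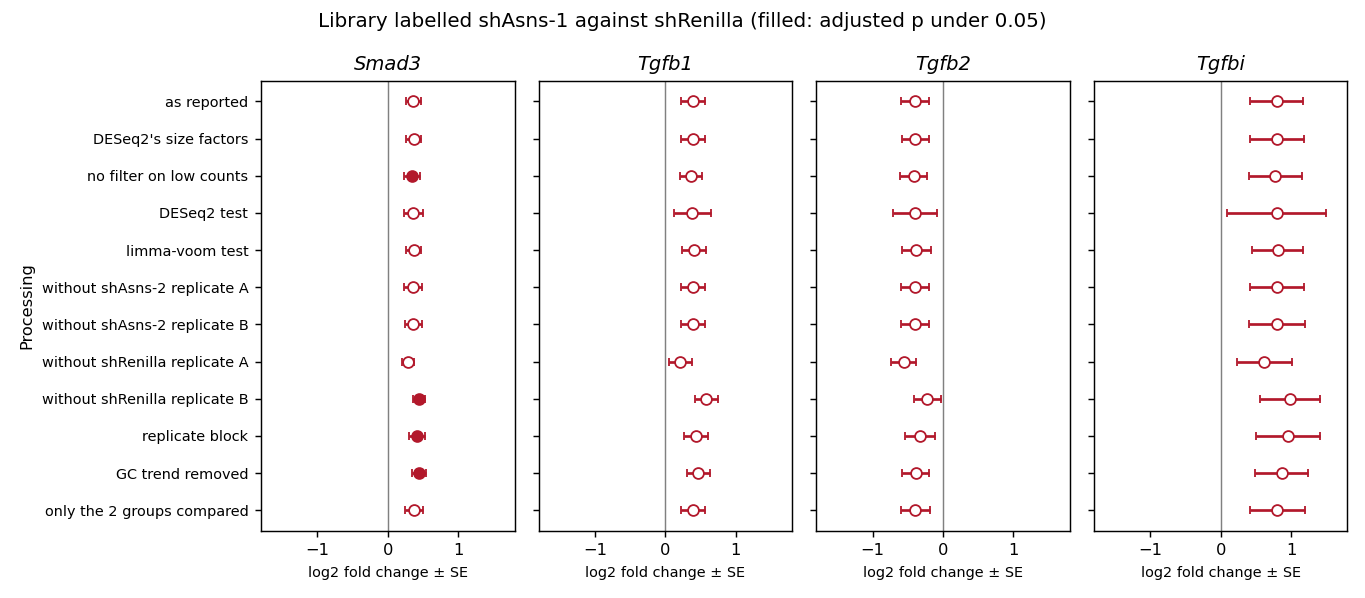
Log2 fold change with its SE in the library labelled shAsns-1, relative to shRenilla, for Smad3, Tgfb1, Tgfb2 and Tgfbi, as reported and under 11 other ways of processing. Filled points have an adjusted p under 0.05, which Smad3 reaches in 4 rows and the other 3 genes in 0. An unfilled point can also mean that no adjusted p was given, as for Tgfb2 by DESeq2. The signs of all 4 genes hold in every row.

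The genes whose pattern over the 5 libraries was nearest to that of Smad3, by Euclidean distance of centred log2 CPM among 8595 tested genes of at least 3 log2 CPM, were Uevld (distance 0.0180), Pbk (0.0417) and Rbl1 (0.0468), where the median distance was 0.387. Pbk is a mitotic kinase and Rbl1 the pocket protein p107. Over 5 libraries the likeness rests mainly on the high value of the library labelled shAsns-1 and the low value of shRenilla A, which for Uevld were 0.23 and -0.19 in centred log2 CPM. Pbk, for example, had 203 CPM in the library labelled shAsns-1, 164 and 172 CPM in shAsns-2, and 151 and 167 CPM in shRenilla.

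Promoter sequences from RefSeq (GRCm38.p6), from 250 bases before to 50 after the start, were found for 6 of the 9 genes (Tgfb1, Tgfb2, Tgfbr1, Tgfbr2, Smad3 and Tgfbi). They were searched for the SMAD box CAGAC on both strands. Smad3 is shown because it had the smallest p of the 9 genes, Tgfb2 because it had the smallest p of them between the hairpins, and Cyr61 (Ccn1 in RefSeq) because it is the pathway target with the smallest p, described further on. Capitals mark CAGAC and, in Cyr61, also CATTCC, which is the TEAD element GGAATG on the other strand. The windows are chr9:63757945-63758244 for Smad3, chr1:186705940-186706239 for Tgfb2 and chr3:145649936-145650235 for Cyr61, all on the - strand and written 5′ to 3′.
Smad3: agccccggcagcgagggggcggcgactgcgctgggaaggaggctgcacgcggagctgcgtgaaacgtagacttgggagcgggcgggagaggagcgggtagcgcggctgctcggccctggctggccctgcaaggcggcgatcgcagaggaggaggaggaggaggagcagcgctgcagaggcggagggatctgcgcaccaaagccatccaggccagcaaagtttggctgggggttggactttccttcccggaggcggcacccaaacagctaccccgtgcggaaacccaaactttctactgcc
Tgfb2: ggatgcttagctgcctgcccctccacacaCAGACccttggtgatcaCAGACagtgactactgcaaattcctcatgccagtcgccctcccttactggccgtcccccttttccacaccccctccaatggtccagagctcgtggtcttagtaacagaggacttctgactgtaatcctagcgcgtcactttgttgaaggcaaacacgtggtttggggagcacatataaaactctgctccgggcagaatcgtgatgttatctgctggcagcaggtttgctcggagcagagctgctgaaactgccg
Cyr61: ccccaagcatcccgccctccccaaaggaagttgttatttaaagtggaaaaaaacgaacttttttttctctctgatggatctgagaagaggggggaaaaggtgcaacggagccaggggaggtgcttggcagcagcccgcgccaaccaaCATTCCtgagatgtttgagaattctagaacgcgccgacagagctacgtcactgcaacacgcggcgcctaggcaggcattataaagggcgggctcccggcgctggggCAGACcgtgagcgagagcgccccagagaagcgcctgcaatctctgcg
The Smad3 window held 0 SMAD boxes and the Tgfb2 window 2. Among the members not shown, the Tgfbi window held 2, the Tgfbr2 window 1 and the Tgfb1 window 0. The windows at the starts of Tgfbr1 held 0 and 1. In the library labelled shAsns-1, Tgfb2 was at -0.40 and Tgfbi at 0.80, both uncalled, with 2 boxes each. Whether the boxes bear on the levels was not tested. The Cyr61 window held 1 SMAD box and 1 TEAD element. Of 32851 promoter windows of this length, 49.6% held at least 1 SMAD box and 16.2% at least 2, and 14.7% held the TEAD element, so short matches of this kind are common.

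Neither feedback gene was called, and both were at their lowest of the 5 libraries in the library labelled shAsns-1. Smad7, which blocks and helps degrade the type I receptor (chr18:75367529-75395935, + strand), had 30.5 CPM in the library labelled shAsns-1, 33.4 and 36.4 CPM in shAsns-2, and 32.8 and 37.1 CPM in shRenilla. The log2 fold change was -0.21 (SE 0.131, 95% interval -0.49 to 0.07, adjusted p = 0.409) for the library labelled shAsns-1 and 0.03 (SE 0.102, -0.18 to 0.25, adjusted p = 0.946) in shAsns-2, where the groups overlapped. Skil, the SnoN co-repressor that holds SMAD complexes in check (chr3:31095058-31122577, + strand), had 241 CPM in the library labelled shAsns-1, 260.3 and 264 CPM in shAsns-2, and 252 and 243 CPM in shRenilla. The library labelled shAsns-1 lay just under shRenilla B and shAsns-2 above both shRenilla libraries, with log2 fold changes of -0.05 (SE 0.0960, adjusted p = 0.828) and 0.11 (SE 0.0777, adjusted p = 0.650).

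Tgfbi, an extracellular matrix protein named for its induction by TGF-beta (chr13:56609523-56639562, + strand), was counted on few reads. It had 31 reads in the library labelled shAsns-1, 17 and 27 reads in the shAsns-2 libraries, and 24 and 28 in the shRenilla libraries, or 3.03 CPM, 1.62 and 1.94 CPM, and 1.504 and 1.96 CPM. The library labelled shAsns-1 was the highest, and shAsns-2 lay within the shRenilla range. The log2 fold change was 0.80 (SE 0.378, 95% interval 0.00 to 1.60, adjusted p = 0.255) for the library labelled shAsns-1 and 0.09 (SE 0.329, -0.60 to 0.79, adjusted p = 0.949) in shAsns-2. Differences within these intervals were not detectable at this depth.

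**Figure D4:**
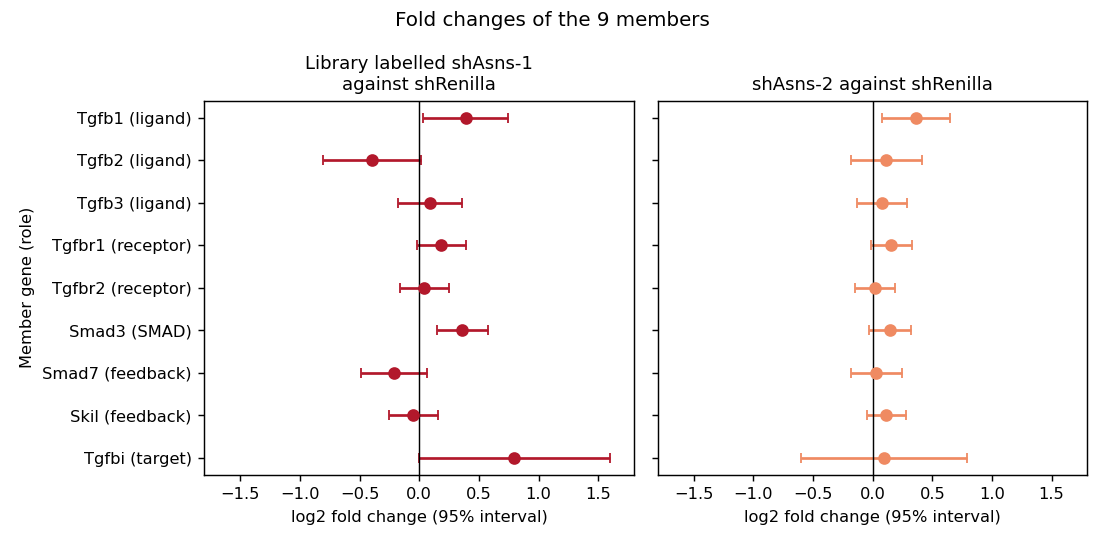
Log2 fold change and 95% interval of the 9 genes, in order of their roles: the library labelled shAsns-1 over shRenilla (left) and shAsns-2 against shRenilla (right). None was called; the intervals that leave 0 out are those of Tgfb1, Smad3 and Tgfbi on the left and of Tgfb1 on the right.

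Counted by position, 6 of the 9 genes were above both shRenilla libraries in the library labelled shAsns-1 (Tgfb1, Tgfb3, Tgfbr1, Tgfbr2, Smad3 and Tgfbi) and 3 were below both (Tgfb2, Smad7 and Skil), where 38.8 and 36.7% of all genes tested did so. In shAsns-2, 4 of 9 (Tgfb1, Tgfbr1, Smad3 and Skil) had both libraries above both shRenilla libraries, where 16.6% of all genes did, 0 lay below and 5 overlapped. All 9 log2 fold changes of shAsns-2 were positive, where 49.7% of all genes were, but 5 of these signs turned when 1 library was left out: Tgfb2, Tgfbr2, Smad7 and Tgfbi without shRenilla A (-0.05, -0.01, -0.04 and -0.08) and Tgfb3 without shRenilla B (-0.02). Smad7 and Tgfbi also turned without shAsns-2 B (-0.03 and -0.05), and Smad7 with the GC trend removed (-0.02). CPM lacks the TMM scaling between libraries used in the fit. In mean CPM Tgfbr2 (159.7 against 161.0) and Smad7 (34.93 against 34.97) were lower in shAsns-2 than in shRenilla. Summed by role, the ligands made 71.0 CPM in the library labelled shAsns-1, 74.2 and 71.1 CPM in shAsns-2, and 64.9 and 67.5 CPM in shRenilla. The receptors made 368 CPM, then 346 and 357 CPM, then 338 and 334 CPM in the same libraries. The feedback genes made 271 CPM in the library labelled shAsns-1, 294 and 301 CPM in shAsns-2, and 285 and 279.7 CPM in shRenilla. In the library labelled shAsns-1, ligand and receptor sums were thus above both shRenilla libraries and the sum of the feedback genes was below both. Of the 7 genes involved 0 were called. Over all genes tested, 75.5% lay outside the shRenilla pair in that single library. Most of the feedback sum was Skil, at 241 CPM there (95% Poisson interval 231.4 to 250.5), beside 252 and 243 CPM in shRenilla.

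The wider pathway was read from 6 further lists with 118 distinct genes in the table, of which 85 were tested. TGF-beta target genes were the longest list and had the most calls, though not the largest share of tested genes called. In the library labelled shAsns-1, 8 of 35 tested target genes fell, 0 rose and 27 were not called, where 4.37% of all genes were called; the median log2 fold change was -0.25 and 26 of 35 values were negative, beside a median of -0.0090 over all genes. The other 7 of the 42 genes on the list, Col1a1, Col1a2, Lox, Snai2, Cnn1, Cdkn2b and Tgfb1i1, had at most 9 reads in any library and were not tested. In shAsns-2, 0 of 35 were called by edgeR, DESeq2 or limma-voom, where edgeR called 0.0642% of all genes, and the median was 0.06. An unadjusted p under 0.05 was found by edgeR for 7 of 35, 3 higher and 4 lower, where 9.63% of all genes had one. Tested directly, 8 of 35 target genes were higher in shAsns-2 than in the library labelled shAsns-1 and 0 were lower, with a median of 0.31; without shAsns-2 A 2 were called and without shAsns-2 B 4. Over all genes 2.14% were called in this comparison and the median was 0.0023. It rests on the same single library as the 8 of 35 that fell, so the counts are not independent.

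Cyr61, a secreted matricellular protein, had the smallest p of the targets, with 107 CPM in the library labelled shAsns-1, 188 and 197 CPM in shAsns-2, and 234 and 221 CPM in shRenilla. Its log2 fold change in the library labelled shAsns-1 was -1.10 (SE 0.105, adjusted p = 1.27e-05, edgeR). Its relative Ctgf, known as a target of both TGF-beta and the YAP pathway like Cyr61, had 27.5 CPM in the library labelled shAsns-1, 44.4 and 41.5 CPM in shAsns-2, and 53.9 and 53.1 CPM in shRenilla, and fell by 0.97 on the log2 scale (SE 0.124, adjusted p = 2.41e-04). For both genes the library labelled shAsns-1 lay far below the other 4 and the groups did not overlap. In shAsns-2 neither was called, at -0.21 and -0.29 (adjusted p = 0.413 and 0.318). The smallest p of the list in shAsns-2 were those of Ctgf and of the cell cycle inhibitor Cdkn1a, which went the other way. Cdkn1a had 22.6 CPM in the library labelled shAsns-1, 37.2 and 29.2 CPM in shAsns-2, and 23.0 and 28.1 CPM in shRenilla. Both shAsns-2 libraries lay above both shRenilla libraries, by 0.40 on the log2 scale (SE 0.128, adjusted p = 0.324, edgeR), and the library labelled shAsns-1 lay below them at -0.18; neither was called.

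The other called targets in the library labelled shAsns-1 were the gelatinase Mmp9 (-1.70, adjusted p = 6.08e-04), the growth factor Pdgfb (-1.20, 0.00631), the lipid kinase Sphk1 (-0.82, 0.0460), fibronectin Fn1 (-0.64, 0.00554), the transcription factor Sox4 (-0.59, 0.0295) and the cytokine Lif (-0.51, 0.0234). Mmp9 had 4.00 CPM in the library labelled shAsns-1, 8.88 and 10.8 CPM in shAsns-2, and 11.8 and 14.1 CPM in shRenilla. Fn1 had 1333 CPM in the library labelled shAsns-1, 2048 and 1726 CPM in shAsns-2, and 2147 and 1960 CPM in shRenilla. Of the 8 calls, those of Cyr61, Ctgf and Fn1 held under all 11 alternatives, and DESeq2 called these 3 and no other target of the list. The calls of Mmp9 and Pdgfb held under the 10 alternatives other than DESeq2, which gave these genes no adjusted p. Sphk1 and Sox4 lost their calls without shAsns-2 A, Sphk1 also without shAsns-2 B, without shRenilla A and by limma-voom, Sox4 without shRenilla B, and Lif without shRenilla A; these 3 were also lost with the GC trend removed, and Sphk1 and Sox4 when only the 2 groups compared were fitted.

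Against this list the members stood as follows in the library labelled shAsns-1: Cyr61 and Ctgf fell, at -1.10 and -0.97 on the log2 scale, whereas Tgfbi was at 0.80, Smad7 at -0.21 and Skil at -0.05, uncalled. The ligand and receptor members, apart from Tgfb2, had values between 0.04 and 0.39. Of the epithelial markers 3 of 6 were called down in that library (Cdh1 -0.48, Epcam -0.69, Krt19 -0.55), where 4.37% of all genes were called, while Krt18 was at 0.04, Krt8 at -0.12 and Cldn4 at -0.35, uncalled; the sum of the 6 was 871 CPM there, 1079.8 and 1072 CPM in shAsns-2, and 1026 and 1009 CPM in shRenilla. The fibroblast markers summed to 39.2 CPM in it, 29.9 and 29.7 CPM in shAsns-2, and 28.9 and 29.0 CPM in shRenilla, nearly all of it Pdgfra, with Lum at 0 in all 5 libraries. The leukocyte markers summed to 4.76 to 7.00 CPM and the endothelial markers to 0.360 to 1.43 CPM over the 5 libraries. The part of these shifts, of the GC trend and of the Asns level in the target gene calls was not tested; with the GC trend removed, 5 of 35 targets were called and the median was -0.20.

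**Figure D5:**
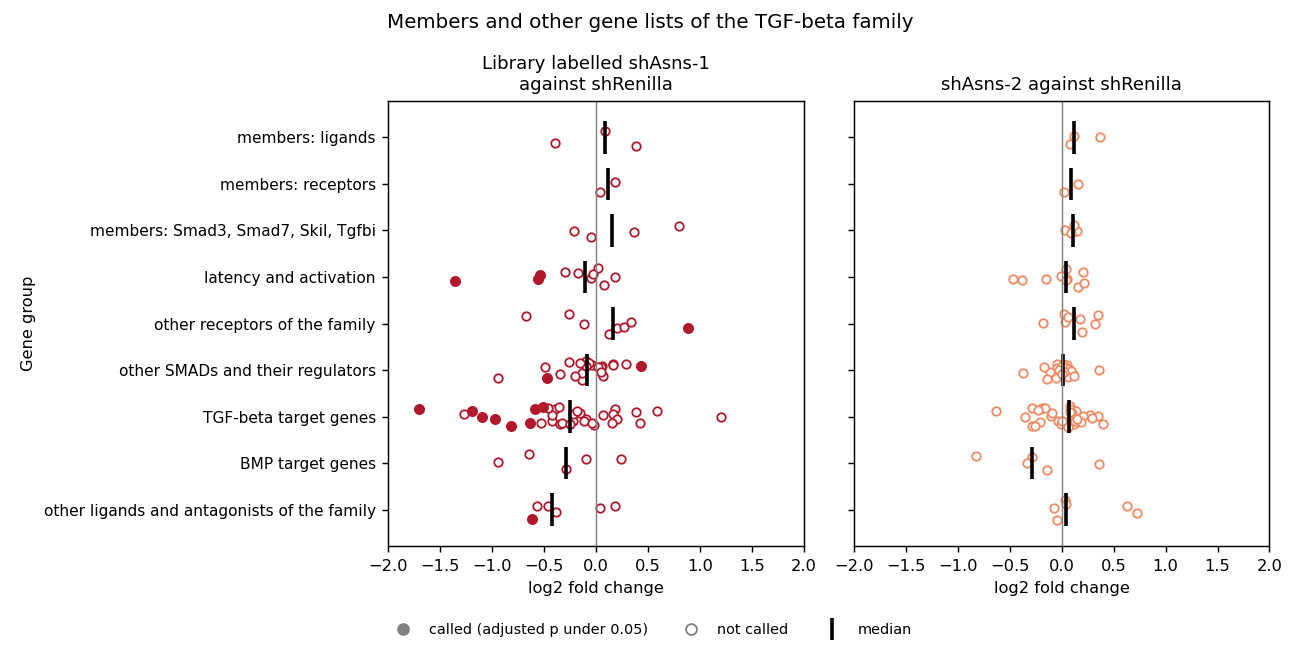
Log2 fold changes of the 9 genes by role and of the 6 other lists: the library labelled shAsns-1 over shRenilla (left) and shAsns-2 against shRenilla (right). Filled points are called and black bars are medians; on the left the TGF-beta targets have 8 filled points, all below 0, and on the right no list has any.

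On the list for latency and activation of TGF-beta, 3 of 10 tested genes fell and 0 rose in the library labelled shAsns-1. Over all genes 4.37% were called there, and the list median was -0.11. Thbs1, thrombospondin 1, which can activate latent TGF-beta, had 122 CPM in the library labelled shAsns-1, 156 and 155 CPM in shAsns-2, and 181 and 172 CPM in shRenilla, a change of -0.54 (SE 0.101, adjusted p = 0.00601) that held under all 11 alternatives. Itgb6, a subunit of an integrin that activates latent TGF-beta, changed by -1.36 (SE 0.337, adjusted p = 0.0299) on 22 reads in the library labelled shAsns-1, 47 and 47 reads in shAsns-2, and 78 and 87 in shRenilla, and lost its call when either shRenilla library was left out, by DESeq2 and by limma-voom. Ltbp2, a microfibril protein of the latent TGF-beta binding family, changed by -0.56 (SE 0.137, adjusted p = 0.0292), a call lost without shRenilla A, by DESeq2 and with the GC trend removed. In shAsns-2 edgeR called 0 of 10, with a median of 0.04; the smallest p were those of Ltbp3, at 0.21, and Itgb6, at -0.47 (adjusted p = 0.487 and 0.520).

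Among 8 other tested receptors of the family 1 rose in the library labelled shAsns-1, where 4.37% of all genes were called: Tgfbr3, the co-receptor betaglycan that presents ligand to Tgfbr2. It had 54.4 CPM in the library labelled shAsns-1, 35.6 and 36.1 CPM in shAsns-2, and 30.5 and 27.9 CPM in shRenilla. The library labelled shAsns-1 was the highest, and both shAsns-2 libraries lay above both shRenilla libraries. The log2 fold change was 0.88 (SE 0.117, 95% interval 0.64 to 1.13, adjusted p = 3.60e-04) in the library labelled shAsns-1, a call that held under all 11 alternatives, and 0.32 (SE 0.0995, adjusted p = 0.304) in shAsns-2. The BMP type I receptor Bmpr1a, at 0.33, just missed the threshold in the library labelled shAsns-1 (adjusted p = 0.0582), and in shAsns-2 the activin receptor Acvr1b was at 0.35 (adjusted p = 0.413); the list medians were 0.16 and 0.12.

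Of 22 other SMADs and regulators tested, 1 rose and 1 fell in the library labelled shAsns-1, where 4.37% of all genes were called. In shAsns-2 0 of them were called. The medians were -0.09 and 0.01 in that order. Wwp1, a ubiquitin ligase that in human cells acts with SMAD7 on the type I receptor, was at 0.44 on the log2 scale (SE 0.0942, adjusted p = 0.0140). Crebbp, the acetyltransferase CBP that serves as a SMAD co-activator, had -0.47 (SE 0.119, adjusted p = 0.0328). Both calls were lost when either shAsns-2 library was left out, that of Crebbp also without shRenilla A, and both with the GC trend removed, where Wwp1 was at 0.26, or with only the 2 groups compared in the fit. The smallest p in shAsns-2 were those of Tgfbrap1 (-0.17) and the SMAD phosphatase Ppm1a (-0.14), with adjusted p = 0.589 and 0.651.

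Of 5 tested BMP targets edgeR called 0 in either comparison, with medians of -0.29 in both. An unadjusted p under 0.05 was found for 2 of 5 under the label shAsns-1, where 19.6% of all genes had one, and for 1 of 5 in shAsns-2, where 9.63% did. The DNA-binding inhibitor Id1 had 9.96 CPM in the library labelled shAsns-1, 11.1 and 13.5 CPM in shAsns-2, and 16.2 and 14.6 CPM in shRenilla, at -0.64 (adjusted p = 0.0604) and -0.29 (adjusted p = 0.520). Both shAsns-2 libraries and the library labelled shAsns-1 lay below both shRenilla libraries. Id3 was at -0.29 in the library labelled shAsns-1 (adjusted p = 0.175), and Id2 at -0.34 in shAsns-2 (adjusted p = 0.396). Of the other ligands and antagonists 6 of 19 were tested, and Inhba, the activin A subunit, fell in the library labelled shAsns-1, by 0.62 on the log2 scale (SE 0.119, adjusted p = 0.00733), a call that held under all 11 alternatives and was the 1 call among these 6, where 4.37% of all genes were called. It had 129 CPM there, 189 and 177 CPM in shAsns-2, and 214 and 178 CPM in shRenilla, and its value in shAsns-2 was -0.07 (adjusted p = 0.844). In shAsns-2 the antagonists Fstl3 and Fst were at 0.63 and 0.72, on at most 43 and 16 reads per library, and Gdf11 was at -0.38 in the library labelled shAsns-1; none of these was called. The list medians were -0.43 and 0.04. Over all 6 lists DESeq2 and limma-voom, like edgeR, called 0 genes in shAsns-2, and outside the target and BMP lists 4 of 46 genes tested had an unadjusted p under 0.05 there, near the 9.63% of all genes.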

How the data were processed

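Messenger RNA of 4T1 cells was counted in libraries A and B of each of 3 hairpins. The deposited table holds the authors' raw counts of reads per gene, not normalized. The submitters' processing notes name Bowtie2, HTSeq and the build mm10. The sources used here do not give versions, annotation or strand setting. The shAsns-1 B column, 0 throughout, was left out, so the design, written for 6 libraries, was fitted to 5 with 2 residual and 14.7 prior degrees of freedom. HTSeq's own tallies were removed first. Of all reads per library, 36.1 to 38.3% fell in no feature, 17.9 to 23.2% were unaligned and 0.584 to 0.626% were ambiguous. The tally of reads without a unique alignment was 0 in every library, and how such reads were handled is not given.

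Counts were fitted with edgeR 4.0.16 (limma 3.58.1, R 4.3.3) after filterByExpr by group and TMM scaling, with a common dispersion of 0.00388. The alternatives were DESeq2 1.42.0, its size factors, limma-voom, no filter, each library left out, a replicate block, removal of the GC trend and fits of only the 2 groups compared. Genes to which DESeq2 gave no adjusted p were counted as not called. The fitting was tested on simulated data. Libraries of a group were not duplicates (chi-square over its degrees of freedom: 3.17 in shAsns-2, 9.2 in shRenilla). Across groups, shRenilla A was nearer to each shAsns-2 library (6.88 for library A, 5.29 for library B) than to shRenilla B. For shRenilla B the values were 8.69 with shAsns-2 B and 10.16 with shAsns-2 A. The control libraries thus did not group apart from shAsns-2 by this measure, which limits every comparison of shAsns-2 with shRenilla. The measure grows with read depth, and the shRenilla libraries were the deepest of the 5. RPKM used exon lengths of GENCODE M21 on GRCm38, in which 23074 of 23481 symbols were matched. Intervals on single libraries cover counting error only.

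Results for 1 further pathway gene are not reported here, and it is left out of the lists. The members and lists were chosen with earlier results of these data known. Named were the 9 members, Asns, every list gene called in a hairpin against shRenilla, the 2 smallest p of a list with fewer than 2 calls, and the 3 genes nearest in pattern to the member with the smallest p.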

Additional observations from a re-analysis of the deposited data

Results flagged for a closer look

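None of the 9 genes differed between the hairpins at an adjusted p under 0.05. Of the 27 other pathway genes named by rule, 12 differed between the hairpins, where 2.14% of all genes did, by edgeR's direct test of shAsns-2 with the library labelled shAsns-1, which with 1 library on one side cannot separate the hairpin from the library. All 12 are among the 15 that were named because they were called in that library against shRenilla, and the direct test uses the same library, so the count follows largely from how the genes were chosen. Higher in shAsns-2 on the log2 scale were Mmp9 by 1.35, Pdgfb by 0.94, Cyr61 by 0.89, Ctgf by 0.68, Sox4 by 0.67, Lif by 0.64, Ltbp2 by 0.55, Inhba by 0.54, Fn1 by 0.54 and Crebbp by 0.47. Tgfbr3 (-0.56) and Wwp1 (-0.49) were lower in shAsns-2. Adjusted p ranged between 2.25e-04 for Cyr61 and 0.0479 for Crebbp. Over 11 alternatives the difference of Cyr61 kept an adjusted p under 0.05 throughout, and that of Pdgfb did so under 5.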

How the results depend on the processing

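Of the log2 fold changes of the 9 genes under the alternatives, 289 kept their direction and their side of the threshold, 4 of Smad3 passed it and 13 of genes near 0 changed sign. In the library labelled shAsns-1 against shRenilla the members called were 1, Smad3, with no filter on low counts (0.34), the GC trend removed (0.44) or the replicate block (0.41), and 0 to 1 with a library left out (Smad3 0.29 to 0.44); Tgfb3 ranged between -0.0074 and 0.20 with a library left out. In shAsns-2 against shRenilla the ranges with a library left out were -0.047 to 0.28 for Tgfb2, -0.019 to 0.19 for Tgfb3, -0.012 to 0.047 for Tgfbr2, -0.045 to 0.11 for Smad7 and -0.083 to 0.28 for Tgfbi, and Smad7 was at -0.018 with the GC trend removed. Between the hairpins Tgfb1 ranged between -0.11 and 0.071 with a library left out, Tgfb3 was at 0.0061 with no filter and 0.047 with the replicate block, and Tgfbr1 at 0.061 with the GC trend removed. 0 members were called in shAsns-2 against shRenilla or between the hairpins under any alternative run.

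For the TGF-beta targets in the library labelled shAsns-1, the median was -0.20 with no filter (13 called), -0.19 by DESeq2 (3 called), -0.23 with the replicate block, -0.20 with the GC trend removed (5 called) and -0.29 to -0.23 with a library left out. In shAsns-2 it was 0.051 with no filter, 0.038 by DESeq2, 0.040 with the GC trend removed and 0.040 to 0.10 with a library left out, with 1 called under the replicate block and 0 to 1 with a library left out. Between the hairpins it was 0.27 with no filter, 0.27 by DESeq2 (5 called), 0.27 by limma-voom, 0.39 with the replicate block, 0.23 with the GC trend removed (5 called) and 0.21 to 0.39 with a library left out, with 2 to 11 called. The correlation of the A minus B differences of shAsns-2 and shRenilla was 0.0265 over 8964 genes. Whether libraries of the same letter were paired is not stated in the labels, and 1 correlation over all genes cannot settle it. Over all genes, shAsns-2 against shRenilla gave 8 higher and 0 lower calls, against 134 and 44 with the replicate block, 87 and 27 with no filter, 37 and 10 without shRenilla A, and 0 without shAsns-2 A or shRenilla B; the library labelled shAsns-1 gave 288 and 256, against 410 and 509 with no filter, 447 and 477 with the block, 402 and 423 without shRenilla B, 119 and 122 by DESeq2 and 189 and 172 with the GC trend removed. The cause of these shifts was not tested.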
